A study of Mus musculus with 2 samples.

Results

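The tetraspanins are cell-surface and vesicle proteins that cross the membrane 4 times, and their transcripts were described here in mouse acute myeloid leukaemia cells. The members were the genes whose symbol is Tspan followed by a number, together with Cd9, Cd37, Cd53, Cd63, Cd81, Cd82 and Cd151. This gave 27 of the 46095 genes and gene models in the count table. Of the 27, 19 had a mean of at least 1 CPM (counts scaled to a common library size) over both libraries and are called measured below, 5 had counts but a lower mean, and 3 had 0 counts in both libraries.

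There were 2 RNA sequencing libraries, 1 labelled P2X1-KO by its genotype field and 1 labelled wild type (WT), and both came from C57BL/6 mice with a labelled age of 8 weeks. The protocol text uses scrambled-control and knockdown names for the same pair of groups, so whether the receptor gene was deleted or knocked down is not settled by the labels. In both groups leukaemia cells were sorted from bone marrow for Mac1, an integrin with a subunit encoded by Itgam, and for the receptor KIT. The labels call them leukaemia-initiating. The oncogene that drove the leukaemia and the number of animals per library are not stated in the sources at hand.

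The P2X1-KO-labelled library held 9447894 counts over 16165 genes and the WT-labelled library 14658620 counts over 19824 genes. P2rx1, the targeted gene, had 45 counts (5.07 CPM) in the P2X1-KO-labelled library and 27 (1.73 CPM) in the WT-labelled library. The ratio was 2.93 (interval 1.78 to 4.90), so P2rx1 counts were not lower in the P2X1-KO-labelled library. Counts summed over a gene cannot show whether its transcript was altered, so they do not settle the label. Every direction below is therefore one between libraries as labelled. Kit had 19.9 CPM in the P2X1-KO-labelled library and 13.3 CPM in the WT-labelled library, and Itgam had 504 CPM in the P2X1-KO-labelled library and 307 CPM in the WT-labelled library, so both sort markers were present in each. With 1 library per group no difference has a replicate check, no p-value was computed, and intervals cover counting error only. In bulk samples such as these, fewer cells of a type and less RNA per cell cannot be told apart.

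Tetraspanins gather integrins, immunoglobulin-superfamily proteins and proteases into membrane microdomains and so act on adhesion, signalling and protein traffic. Leukocytes carry a characteristic set, in which CD37 and CD53 are largely restricted to blood cells, CD63 marks late endosomes, lysosomes and granules, and CD9, CD81 and CD63 are common proteins of extracellular vesicles. In mouse models of myeloid leukaemia, Tspan3 is known as a target of the RNA-binding protein MSI2.

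The start regions of 3 members are shown because these well-counted genes differed by about 2-fold or more, and Tspan32 and Cd81 lie near each other with opposite directions. Each window runs from 250 bases before to 50 bases after a transcription start, 5′ to 3′ on the gene's strand, from RefSeq on GRCm38.p6. The windows are chr6:125494711-125495010 (minus strand) for Cd9, chr7:143004796-143005095 (plus strand) for Tspan32 and chr7:143052500-143052799 (plus strand) for Cd81. Capitals mark GAGGAA, the core recognised by PU.1-type ETS factors, the string TTGCNNCAA (N is any base) and TATAAA, each searched on both strands. TTGCNNCAA is not taken here as the site of any factor.
Cd9: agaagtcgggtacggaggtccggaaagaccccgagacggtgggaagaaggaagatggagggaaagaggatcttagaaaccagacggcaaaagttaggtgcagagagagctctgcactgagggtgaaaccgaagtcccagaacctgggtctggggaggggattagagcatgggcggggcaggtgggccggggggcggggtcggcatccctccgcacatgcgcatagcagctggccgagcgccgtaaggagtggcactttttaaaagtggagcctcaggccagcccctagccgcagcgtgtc
Tspan32: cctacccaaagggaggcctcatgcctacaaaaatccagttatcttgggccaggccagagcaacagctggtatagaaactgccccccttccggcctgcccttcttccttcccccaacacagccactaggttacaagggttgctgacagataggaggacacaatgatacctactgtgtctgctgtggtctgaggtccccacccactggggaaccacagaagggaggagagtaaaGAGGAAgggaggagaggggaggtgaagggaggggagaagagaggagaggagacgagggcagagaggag
Cd81: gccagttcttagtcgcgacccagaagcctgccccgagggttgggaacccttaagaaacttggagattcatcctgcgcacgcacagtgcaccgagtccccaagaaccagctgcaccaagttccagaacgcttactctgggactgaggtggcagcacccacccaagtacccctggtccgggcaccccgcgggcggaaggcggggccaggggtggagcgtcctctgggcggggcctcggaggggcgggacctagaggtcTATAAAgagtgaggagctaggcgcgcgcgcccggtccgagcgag
The Tspan32 window held 1 GAGGAA and 2 CpG dinucleotides, the Cd81 window 1 TATAAA and 23 CpG, and the Cd9 window none of these motifs and 18 CpG. GAGGAA was found in 28.3% of all 32851 windows of this length and in 10 of the 36 windows of members, TATAAA in 13.6% and 2 of 36, and TTGCNNCAA in 2.08% and 1 of 36. A match is a description of the letters, not of a bound site.

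Tetraspanins as a whole took a slightly larger part of the P2X1-KO-labelled library. Their counts summed to 15848, or 0.168% of all counts (exact binomial 95% interval 0.165 to 0.170), in the P2X1-KO-labelled library and to 22879, or 0.156% (0.154 to 0.158), in the WT-labelled library. After TMM scaling, which sets a common size from the bulk of genes, the sums were 1784 CPM in the P2X1-KO-labelled library and 1467 CPM in the WT-labelled library, a 1.22-fold difference (1.19 to 1.24). Members with counts numbered 19 of 27 in the P2X1-KO-labelled library and 23 of 27 in the WT-labelled library, which was sequenced more deeply.

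Per exon length, the leukocyte tetraspanins Cd53, Cd37 and Cd63 were the 3 highest in both libraries. Levels are given here in TPM (counts per exon length, scaled to a common sum), which allow genes to be compared within a library and were not compared between libraries. In the P2X1-KO-labelled library, Cd37 had 328 TPM, Cd53 300 TPM and Cd63 191 TPM, and then came Cd81 at 86.3, Cd9 at 80.4, Cd82 at 79.2 and Tspan31 at 73.8 TPM, each overlapping its neighbour in the order by its 95% Poisson interval. In the WT-labelled library, Cd53 had 350 TPM and Cd37 329 TPM with overlapping intervals, followed by Cd63 at 249, Tspan32 at 146, Tspan4 at 102 and Cd82 at 90.3 TPM, none of which overlapped its neighbour. Tspan32, at 48.3 TPM, thus ranked 9 in the P2X1-KO-labelled library and 4 in the WT-labelled library. Cd9 ranked 5 in the P2X1-KO-labelled library and 11 in the WT-labelled library. Tspan5, Tspan2 and Tspan3 lay at or below 15.8 TPM in both.

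**Figure D1:**
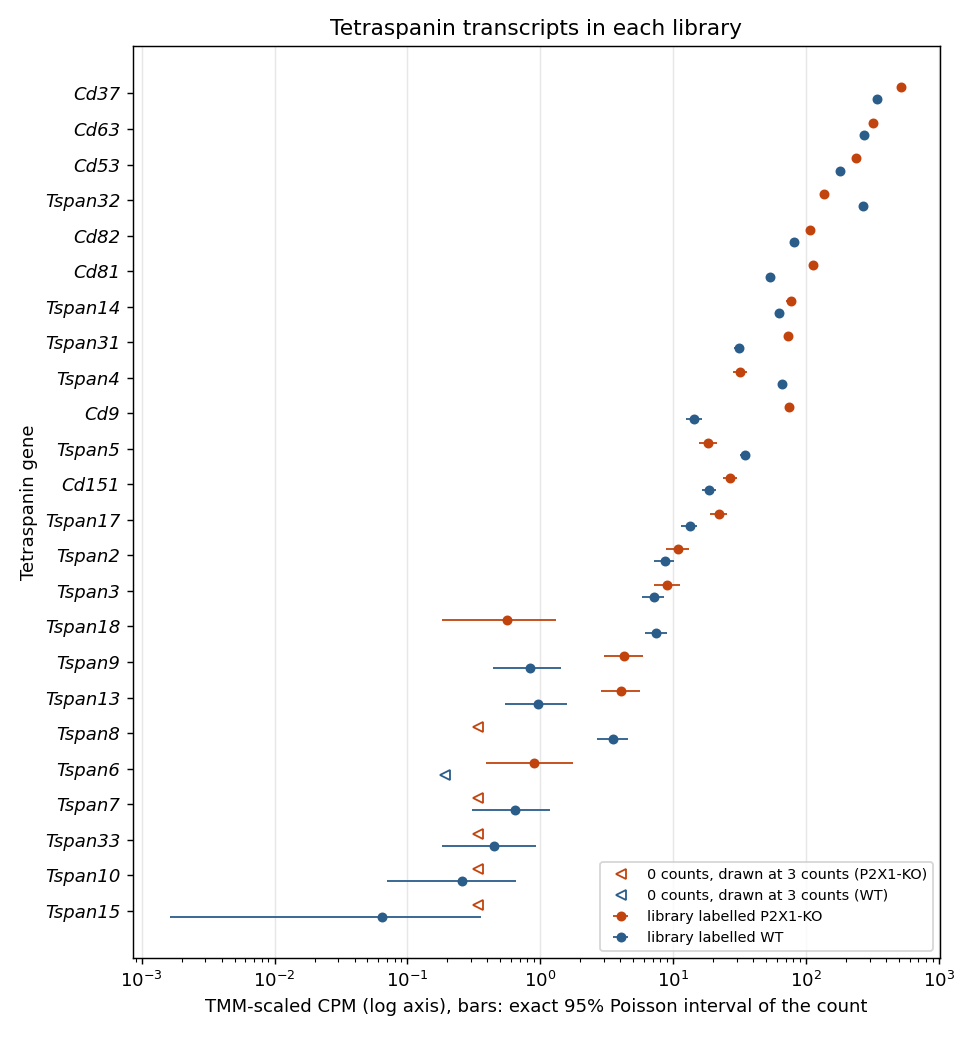
TMM-scaled CPM (log axis) of the 24 tetraspanins with counts, in the P2X1-KO-labelled library (upper symbol of each row) and the WT-labelled library (lower symbol), with exact 95% Poisson intervals and open triangles at 3 counts where the count was 0. Cd37 had 521 CPM in the P2X1-KO-labelled library and 343 CPM in the WT-labelled library, and Cd9 shows the widest gap among members above 10 CPM in both.

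Of the 19 measured tetraspanins, 5 were at least 2-fold higher in the P2X1-KO-labelled library (26.3%), against 15.5% of all 13382 genes at the same level. At least 2-fold lower were 3 (15.8%), against 14% of all genes. For 4 higher members the entire 95% interval was past 2-fold (background 10.2%), as for 2 lower members (background 7.75%). The median log2 difference, log2(CPM + 0.5) in the P2X1-KO-labelled library minus that in the WT-labelled library, was 0.39 over the measured members and -0.06 over all genes at that level, and 14 of the 19 (73.7%) had a positive difference, against 47.2% of all genes at that level. Of the 19, Tspan9, Tspan13, Tspan8 and Tspan18 were under 1 CPM in 1 library and passed the level through the other, so these counts and the median describe the members and support nothing.

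**Figure D2:**
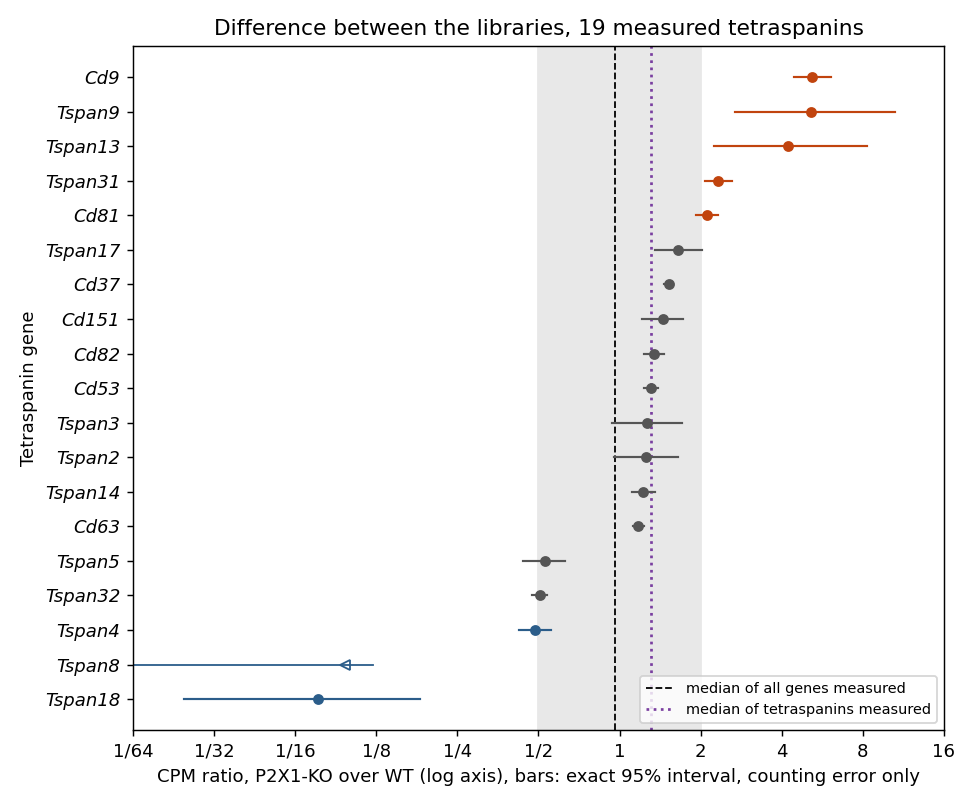
CPM ratio of the P2X1-KO-labelled library over the WT-labelled library (log axis) for the 19 measured tetraspanins, with exact 95% intervals, the 2-fold range in grey and the medians of all measured genes and of measured tetraspanins as lines. Cd9, Tspan9, Tspan13, Tspan31 and Cd81 lie above the grey range and Tspan4, Tspan8 and Tspan18 below it, while Tspan32 and Tspan5 sit just inside its lower edge.

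Among the leukocyte tetraspanins, Cd9 was 5.2-fold higher in the P2X1-KO-labelled library and Cd81 was 2.11-fold higher, while Tspan32 was 1.98-fold lower. Cd9, an adhesion partner of integrins and of the immunoglobulin-superfamily proteins IGSF8 and PTGFRN, had 660 counts (74.3 CPM) in the P2X1-KO-labelled library and 223 counts (14.3 CPM) in the WT-labelled library. Its interval of 4.46 to 6.07 lay wholly beyond 2-fold. Cd81, a component of the B-cell co-receptor, had 998 counts (112 CPM) in the P2X1-KO-labelled library and 830 counts (53.2 CPM) in the WT-labelled library, with an interval of 1.92 to 2.32. It fell inside 2-fold, at 1.87, when libraries were scaled by total counts, and at 1.997 after a correction for exon length and GC content.

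Tspan32, a tetraspanin of blood cells that also goes by Tssc6 or Phemx, had 1208 counts (136 CPM) in the P2X1-KO-labelled library and 4201 counts (269 CPM) in the WT-labelled library. The interval of its 1.98-fold difference was 1.86 to 2.11, and with total counts it was 2.24-fold lower. Tspan32 and Cd81 both lie on chromosome 7, at 143005046 to 143019644 and 143052739 to 143067934 (mm10), on the plus strand and 33094 bases apart. The ratio of Tspan32 to Cd81 counts, which does not depend on scaling, was 1.21 in the P2X1-KO-labelled library and 5.06 in the WT-labelled library. That is 4.18-fold lower in the P2X1-KO-labelled library (log-normal 95% interval 3.74 to 4.68). The pair was looked at because of its opposite directions, so the ratio restates them.

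The remaining leukocyte members lay within 2-fold and above the median of all genes. Cd37 was 1.52-fold higher in the P2X1-KO-labelled library (1.46 to 1.58), with 4631 counts (521 CPM) against 5344 (343 CPM) in the WT-labelled library. Cd53, a gene read across most leukocytes, was 1.31-fold higher (1.24 to 1.38), with 2096 counts (236 CPM) in the P2X1-KO-labelled library and 2814 (180 CPM) in the WT-labelled library. Cd82, known as a metastasis suppressor and for quiescence of blood stem cells, was 1.34-fold higher, at 108 CPM in the P2X1-KO-labelled library and 80.3 CPM in the WT-labelled library. Cd151, the partner of laminin-binding integrins, was 1.45-fold higher, at 26.8 CPM in the P2X1-KO-labelled library and 18.5 CPM in the WT-labelled library. Cd63 was the most level of the group at 1.18-fold (1.12 to 1.23), with 2828 counts in the P2X1-KO-labelled library and 4223 in the WT-labelled library. The pseudogene Cd63-ps had 273 counts in the P2X1-KO-labelled library and 422 in the WT-labelled library, so reads may be split between the copies, and the 2 together gave 1.17-fold.

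The make-up of the tetraspanin counts, which needs no scaling between libraries, had a smaller share of Tspan32 and larger shares of Cd37, Cd9 and Cd81 in the P2X1-KO-labelled library. Tspan32 made up 7.62% of tetraspanin counts in the P2X1-KO-labelled library (7.21 to 8.05) and 18.4% in the WT-labelled library (17.9 to 18.9). Cd37 made up 29.2% in the P2X1-KO-labelled library and 23.4% in the WT-labelled library. Cd81 made up 6.30% in the P2X1-KO-labelled library and 3.63% in the WT-labelled library, and Cd9 made up 4.16% in the P2X1-KO-labelled library and 0.975% in the WT-labelled library. Cd63 and Tspan14 had nearly level shares, at 17.8% and 4.29% in the P2X1-KO-labelled library and 18.5% and 4.26% in the WT-labelled library. Shares follow transcript length as well as abundance, and a share can move because another member moved. The make-up was looked at after the counts had been seen.

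**Figure D3:**
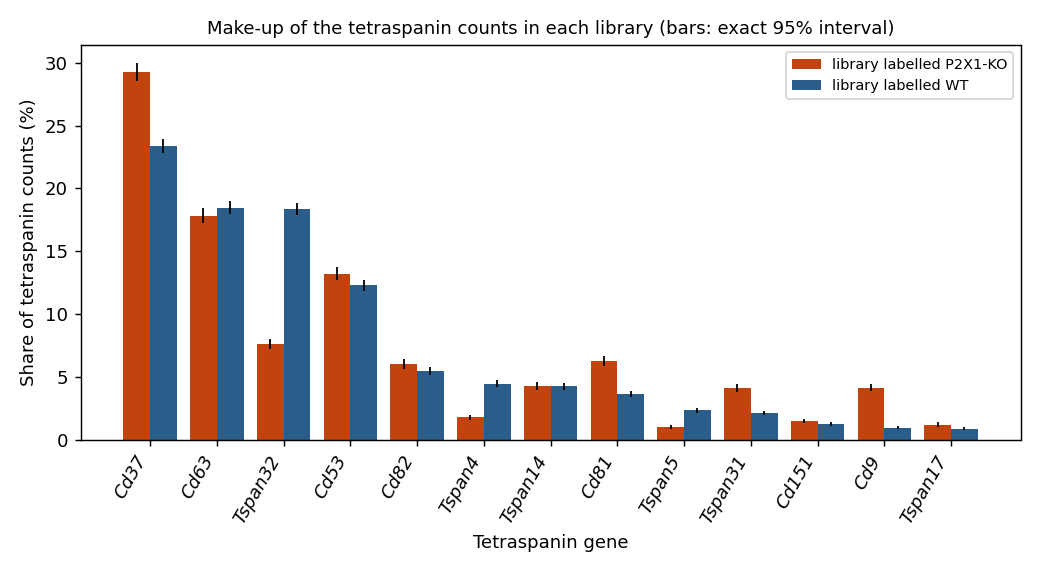
Share of tetraspanin counts (percent) taken by the 13 members with the highest share in the WT-labelled library, in the P2X1-KO-labelled library (left bar) and the WT-labelled library (right bar), with exact binomial 95% intervals. The Tspan32 bars differ most in height, at 7.62% in the P2X1-KO-labelled library and 18.4% in the WT-labelled library.

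The TspanC8 group comprises the tetraspanins that escort the protease ADAM10 out of the endoplasmic reticulum and steer its substrate choice. Of its 6 members, 3 were measured, and all 3 lay within 2-fold, as did 70.5% of all genes at that level. Tspan5 was 1.90-fold lower in the P2X1-KO-labelled library (1.59 to 2.27), with 162 counts (18.2 CPM) against 539 (34.6 CPM) in the WT-labelled library, and 2.14-fold lower with total counts. Tspan14 was 1.22-fold higher (1.11 to 1.35), with 76.6 CPM in the P2X1-KO-labelled library and 62.5 CPM in the WT-labelled library, and per exon length it had the highest level of the group in both, at 63.9 TPM in the P2X1-KO-labelled library and 79.8 TPM in the WT-labelled library. Tspan17 was 1.65-fold higher (1.35 to 2.02), with 22.0 CPM in the P2X1-KO-labelled library and 13.3 CPM in the WT-labelled library. The ratio of Tspan5 to Tspan14 counts was 0.238 in the P2X1-KO-labelled library and 0.553 in the WT-labelled library, 2.32-fold lower (log-normal 95% interval 1.90 to 2.84). Tspan10, Tspan15 and Tspan33 had 0 counts in the P2X1-KO-labelled library and 4, 1 and 7 counts in the WT-labelled library. Adam10 itself was higher by a ratio of 1.501 (1.39 to 1.62), at 130.03 CPM in the P2X1-KO-labelled library and 86.65 CPM in the WT-labelled library.

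Tspan4, whose product organises migrasomes on the retraction fibres of migrating cells, was 2.06-fold lower in the P2X1-KO-labelled library (1.80 to 2.36). It had 284 counts (31.97 CPM) in the P2X1-KO-labelled library and 1026 counts (65.8 CPM) in the WT-labelled library. With upper-quartile scaling the ratio of Tspan4 was 0.515, just within 2-fold. Tspan4 lies 3766 bases from Cd151 on chromosome 7, and the ratio of Tspan4 to Cd151 counts was 1.19 in the P2X1-KO-labelled library and 3.55 in the WT-labelled library, 2.98-fold lower (2.40 to 3.69). Tspan4 shares 13.4% of its exon bases with Chid1 on the opposite strand, which had 168 counts in the P2X1-KO-labelled library and 211 in the WT-labelled library.

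Tspan31 was 2.33-fold higher in the P2X1-KO-labelled library (2.07 to 2.62), with 650 counts (73.2 CPM) against 490 (31.4 CPM) in the WT-labelled library. Tspan31 shares 641 exon bases, 29.2% of its exon length, with Cdk4 on the opposite strand, and no source at hand states the strand setting of the counting. Cdk4, a cell-cycle kinase gene, had 1980 counts (223 CPM) in the P2X1-KO-labelled library and 3376 (217 CPM) in the WT-labelled library, a ratio of 1.03. Reads from the shared stretch cannot be assigned with certainty, so the value of Tspan31 is uncertain, and the correction for length and GC content brought it to 1.86-fold.

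Tspan18 and Tspan8 were read almost only in the WT-labelled library. Tspan18, known in human endothelial cells as a partner of the store-operated calcium channel ORAI1, had 5 counts (0.563 CPM) in the P2X1-KO-labelled library and 116 (7.44 CPM) in the WT-labelled library. It was 13.2-fold lower, with a wide interval of 5.50 to 41.5. Tspan8, known for its high level in human carcinomas, had 0 counts in the P2X1-KO-labelled library and 55 (3.53 CPM) in the WT-labelled library. With the 0 set to a floor of 3 counts it was 10.4-fold lower, and the bound of the exact interval nearest to no change was 8.21.

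Tspan9 and Tspan13 were low and stood higher in the P2X1-KO-labelled library. Tspan9, a platelet tetraspanin, had 38 counts (4.28 CPM) in the P2X1-KO-labelled library and 13 (0.834 CPM) in the WT-labelled library, 5.13-fold higher (2.67 to 10.5). Tspan13 had 36 counts (4.05 CPM) in the P2X1-KO-labelled library and 15 (0.962 CPM) in the WT-labelled library, 4.21-fold higher (2.25 to 8.28). The intervals of both lay wholly beyond 2-fold. Tspan2, best known from myelinating glia, and Tspan3 were close to level. Tspan2 had 96 counts in the P2X1-KO-labelled library and 134 in the WT-labelled library, a ratio of 1.26 (0.957 to 1.65). Tspan3 had 80 counts in the P2X1-KO-labelled library and 111 in the WT-labelled library, a ratio of 1.27 (0.937 to 1.70). Its known regulator Msi2 was 3.09-fold lower in the P2X1-KO-labelled library, at 7.32 CPM against 22.6 CPM in the WT-labelled library.

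Members below the level used here gave few counts. Tspan6 had 8 counts in the P2X1-KO-labelled library and 0 in the WT-labelled library. Against the floor Tspan6 was 4.68-fold higher, and the exact bound nearest to no change was 2.996. Tspan7, a gene of X-linked intellectual disability in human, had 0 counts in the P2X1-KO-labelled library and 10 in the WT-labelled library. Against the floor it was 1.90-fold lower, with a nearest bound of 1.28. Tspan1, Tspan11 and Tspan12, the last a co-receptor gene of Norrin signalling in the retina, had 0 counts in both libraries. The floor of 3 counts used for a count of 0 is 0.338 CPM in the P2X1-KO-labelled library and 0.192 CPM in the WT-labelled library.

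**Figure D4:**
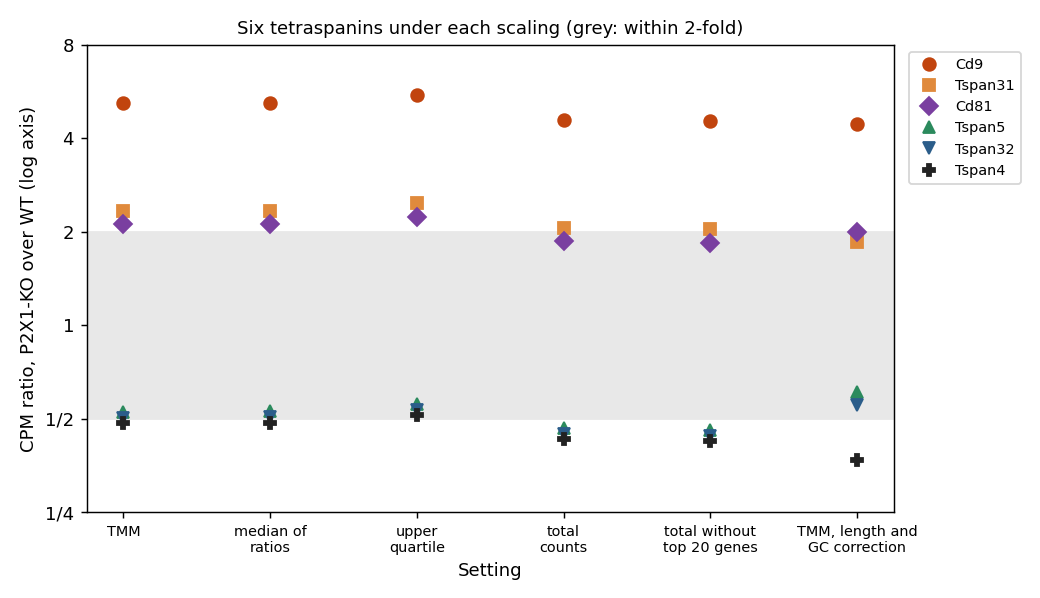
CPM ratio of the P2X1-KO-labelled library over the WT-labelled library (log axis) for Cd9, Tspan31, Cd81, Tspan5, Tspan32 and Tspan4 under TMM, 4 other scalings and a length and GC correction, with the 2-fold range in grey. Cd9 stays between 4.45 and 5.50 under all of them, while each of the other members lies within the grey range under some settings and outside it under others.

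Genes of proteins that tetraspanins bind, carry or are modified by, together with the Tspan3 regulator Msi2, were taken from a list of 38 genes, of which 28 were measured. Of these, 9 were at least 2-fold higher in the P2X1-KO-labelled library (background 15.5%) and 2 at least 2-fold lower (background 14%). For 8 higher and 1 lower the entire interval was past 2-fold (background 10.2% and 7.75%), and the lower 1 was Msi2, which is not a binding partner. Igsf8, encoding the CD9 and CD81 partner EWI-2, was 3.17-fold higher (2.70 to 3.74), with 47.8 CPM in the P2X1-KO-labelled library and 15.1 CPM in the WT-labelled library. Among integrin subunits, 4 of 7 measured were at least 2-fold higher, namely Itgb3 at 3.47-fold, Itgb2 at 2.51-fold, Itga6 at 2.45-fold and Itga4 at 2.25-fold, whereas Itgb1, the main tetraspanin-associated beta chain, had 153 CPM in the P2X1-KO-labelled library and 167 CPM in the WT-labelled library.

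Other surface partners were mixed in direction. Ptgfrn, encoding the CD9 partner EWI-F, was 3.12-fold higher on few reads (1.30 to 8.01). Hbegf, encoding a growth factor held by CD9, was 3.52-fold lower (1.85 to 7.39), with 11 counts in the P2X1-KO-labelled library and 68 in the WT-labelled library. Clec7a, encoding the CD37 partner dectin-1, was 5.44-fold higher (4.65 to 6.39), with 73.3 CPM in the P2X1-KO-labelled library and 13.5 CPM in the WT-labelled library. The antiviral CD81-associated genes Ifitm3 and Ifitm1 were 4.95-fold and 4.88-fold higher. Timp1, a CD63 ligand gene, had 0 counts in the P2X1-KO-labelled library and 20 in the WT-labelled library. Zdhhc2, encoding a palmitoyltransferase of CD9 and CD151, had 0 counts in the P2X1-KO-labelled library and 23 in the WT-labelled library. With each 0 set to the floor they were 3.80-fold and 4.37-fold lower, and the exact bounds nearest to no change were 2.81 and 3.27. Both had a mean under 1 CPM and are not among the 28. Of 7 genes of vesicle formation and release, 6 were measured and all 6 lay within 2-fold (70.5% of all genes did), from Rab27a at a ratio of 1.70 to Stam at 0.530.

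**Figure D5:**
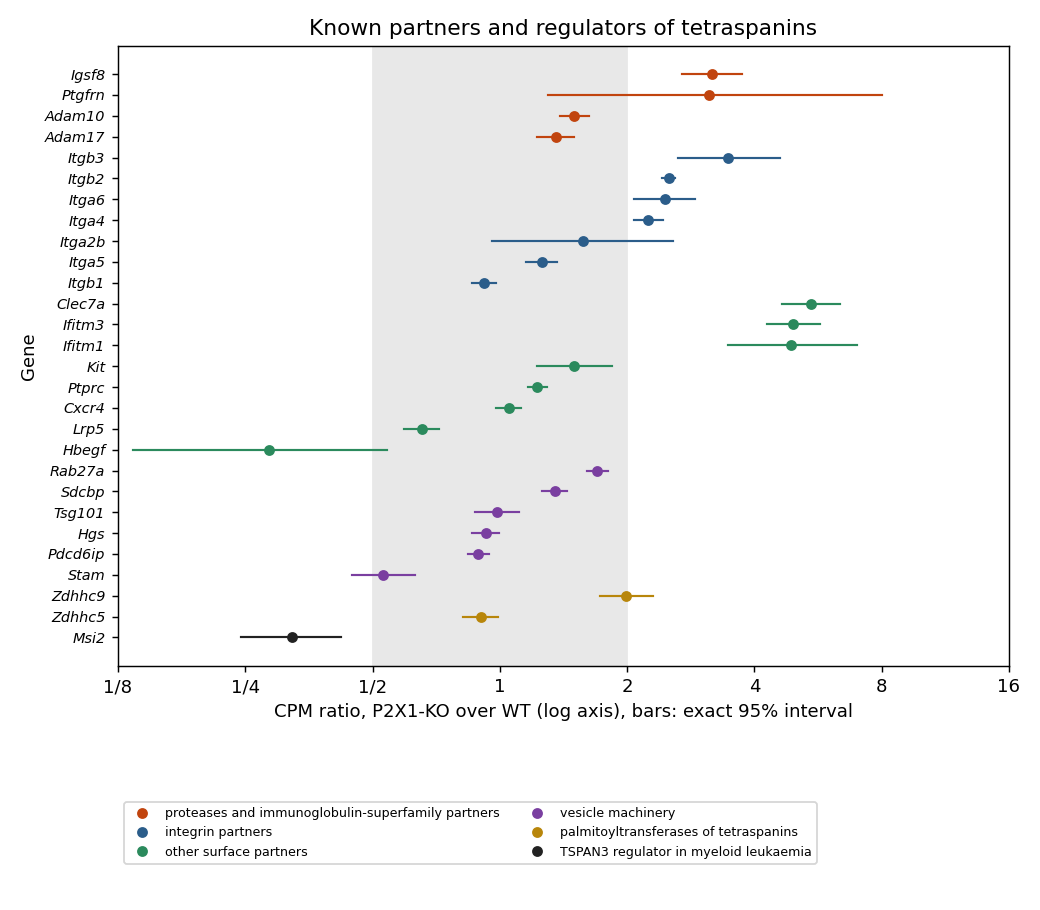
CPM ratio of the P2X1-KO-labelled library over the WT-labelled library (log axis) for the 28 measured partners and regulators, grouped by list, with exact 95% intervals and the 2-fold range in grey. Clec7a and the Ifitm genes lie farthest to the right, at 4.88 to 5.44, and Hbegf and Msi2 farthest to the left.

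The summed markers of maturing myeloid cells, and of some other cells, were higher in the P2X1-KO-labelled library, though single markers went the other way. Of the 19 measured tetraspanins, 14 were higher there, among them Cd9 and Cd81, and 5 were lower, among them Tspan32 and Tspan4. The 8 monocyte and macrophage markers summed to 5211 CPM in the P2X1-KO-labelled library and 351 CPM in the WT-labelled library, with all 8 at least 2-fold higher, and the 8 neutrophil markers to 12489 CPM in the P2X1-KO-labelled library and 3181 CPM in the WT-labelled library, with 7 at least 2-fold higher and Ly6g lower, at 4.05 CPM in the P2X1-KO-labelled library and 6.99 CPM in the WT-labelled library. Eosinophil markers summed to 150.0 CPM in the P2X1-KO-labelled library and 13.7 CPM in the WT-labelled library, with Ear1 at 0 in both. Prg2 made up most of the eosinophil sum of the P2X1-KO-labelled library, at 129 CPM there and 0.513 CPM in the WT-labelled library, and Ear6 had 0 counts in the P2X1-KO-labelled library and 19 in the WT-labelled library. Mast cell and basophil markers summed to 109 CPM in the P2X1-KO-labelled library and 48.1 CPM in the WT-labelled library, with Fcer1a and Prss34 at 0 in both. Gata2 made up most of the P2X1-KO-labelled sum, at 66.3 CPM there and 13.8 CPM in the WT-labelled library. Cpa3 had 18.7 CPM in the P2X1-KO-labelled library and 0.0641 CPM in the WT-labelled library. Mcpt8 was lower, at 22.97 CPM in the P2X1-KO-labelled library and 33.99 CPM in the WT-labelled library. Stromal markers summed to 250.2 CPM in the P2X1-KO-labelled library and 94.2 CPM in the WT-labelled library, with Pdgfra and Dcn at 0 in both and Col1a2 and Col3a1 at 0 in the WT-labelled library. The stromal members split, since Col1a1 had 149 CPM in the P2X1-KO-labelled library and 0.962 CPM in the WT-labelled library, whereas Pdgfrb had 47.1 CPM in the P2X1-KO-labelled library and 93.1 CPM in the WT-labelled library, nearly the whole sum there. The part of these cells in the tetraspanin differences was not tested.

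Markers of platelets, erythroid cells, endothelium and lymphocytes were low, apart from Cd79b and, in the P2X1-KO-labelled library, Vwf. The 6 platelet markers, of the lineage in which Cd9 and Tspan9 are abundant, summed to 4.62 CPM in the P2X1-KO-labelled library and 2.89 CPM in the WT-labelled library, and Pf4, Ppbp and Gp1ba were at 0 in both. Erythroid markers summed to 2.14 CPM in the P2X1-KO-labelled library and 0.962 CPM in the WT-labelled library. Endothelial markers summed to 17.3 CPM in the P2X1-KO-labelled library and 2.18 CPM in the WT-labelled library, with Kdr, Emcn and Tek at 0 in both. Vwf made up most of both sums, at 16.8 CPM in the P2X1-KO-labelled library and 1.99 CPM in the WT-labelled library. B-cell markers, of the lineage in which Cd37 and Cd81 are prominent, summed to 49.1 CPM in the P2X1-KO-labelled library and 16.4 CPM in the WT-labelled library. Most of each sum was Cd79b, at 47.4 CPM in the P2X1-KO-labelled library and 14.7 CPM in the WT-labelled library, and Ms4a1, Ebf1 and Pax5 were at 0 in both. T- and NK-cell markers summed to 0.901 CPM in the P2X1-KO-labelled library and 0.128 CPM in the WT-labelled library. The 4 primary granule genes, of the promyelocyte stage, summed to 6251 CPM in the P2X1-KO-labelled library and 3653 CPM in the WT-labelled library. None was 2-fold apart, and Mpo was lower, at 158 CPM in the P2X1-KO-labelled library and 297 CPM in the WT-labelled library.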

How the data were processed

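RNA was measured in 2 libraries of sorted mouse leukaemia cells. The deposited table holds raw counts, 1 column per library, that the authors did not normalize. HISAT2 2.0.4 and the mm10 build are named in the submitters' processing notes, and the counter, its annotation and its strand setting are not given in the sources used.

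Counts were scaled by TMM in edgeR 4.0.16 (R 4.3.3) to effective sizes of 8882591 for the P2X1-KO-labelled library and 15591519 for the WT-labelled library. Ratios of CPM have exact Clopper-Pearson 95% intervals given the sum of both counts. Log2 differences use a pseudocount of 0.5 CPM, which understates low genes. A count of 0 was set to a floor of 3 counts. Reads are not independent molecules, so intervals cover counting error only. No test was possible with 1 library per group. The ratio calculation was tested on simulated data.

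Exon lengths, coordinates and overlaps came from GENCODE M21 (GRCm38, the same assembly as mm10). It held all 27 members and 92.6% of measured genes. RefSeq start windows were given for 26 members.

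All members were named with values or counts, and listed partners were counted, with values where the whole interval lay beyond 2-fold or where the text needs them. Markers are given as sums per list, with single markers chosen after their values were seen. Some genes of the lists are not reported here. The members, the lists and the pairs of members set in a ratio were chosen with earlier results of these data known. The intervals of the pair ratios do not allow for that choice. Alternatives were other scalings, filters, pseudocounts, lengths and a length and GC correction.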

Additional observations from a re-analysis of the deposited data

How the results depend on the processing

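No paired analysis was possible because each group had 1 library. All 19 measured tetraspanins kept their direction under the 5 alternatives that change a ratio, which are 4 scalings and the length and GC correction. A scaling changes every ratio by the same factor, so the 4 scalings could turn only members near a ratio of 1 and are a weak check. Not every direction was firm, since the intervals of Tspan2 and Tspan3 included a ratio of 1 with TMM. Without the 20 most abundant genes, Cd63 was at 1.03 and Tspan14 at 1.07, so the directions of Cd63 and Tspan14 were not firm either. Filters and pseudocounts cannot turn a direction. The count at least 2-fold lower in the P2X1-KO-labelled library was 3 of 19 with TMM (14% of all genes). It was 5 of 19 with total counts (18.4% of all genes) and 5 of 19 without the 20 most abundant genes (19.1%), through Tspan32 and Tspan5. With a mean of at least 5 CPM it was 1 of 15 (10.6%). The count at least 2-fold higher was 5 of 19 with TMM (15.5% of all genes) and 3 of 15 with a mean of at least 5 CPM (12.1%). After the length and GC correction it was 3 of 19 (13.7%), with Cd81 and Tspan31 brought inside 2-fold. The share of all genes past 2-fold thus moved with the setting as well. The stricter level tests fewer genes. The median log2 difference of 0.39 was 0.21 with total counts, 0.19 without the 20 most abundant genes and 0.47 with upper quartile, where the median of all genes was -0.23, -0.25 and 0.02. The members' median lay 0.44 to 0.45 above that of all genes under each of the 5 scalings. A scaling moves both medians by nearly the same amount, so this gap could hardly change and is no check. With those 20 genes left out, tetraspanins took 0.186% of counts in the P2X1-KO-labelled library and 0.175% in the WT-labelled library. With the longest transcript as length, the 5 highest members per library were the same. Counts of 10 or fewer, as for Tspan6 and Tspan7, limit their folds.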

Other observations

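Genes with the tetraspanin fold but other names were also read. Upk1a, encoding a uroplakin of the urothelium, had 15 counts (1.69 CPM) in the P2X1-KO-labelled library and 98 (6.29 CPM) in the WT-labelled library, 3.72-fold lower (2.15 to 6.90). Rom1, encoding a protein of photoreceptor discs, had 39 counts in the P2X1-KO-labelled library and 50 in the WT-labelled library, a ratio of 1.37 (0.877 to 2.12). Upk1b and Prph2 had 0 counts in both libraries.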
